A study of Mus musculus with 12 samples.

Results

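The 6 genes that mark the working muscle of the ventricle were followed in 12 libraries of mouse heart mRNA: the light chain genes Myl2 and Myl3 and the transcription factor genes Irx4, Irx3, Irx5 and Hey2. They were taken by symbol from the deposited table of 17379 genes, all 6 were found, and all 6 passed the filter on low counts together with 13849 genes in all. The 4 groups held 3 libraries each, from mice of C57BL background aged 6 months. The groups were nontransgenic mice (C57BL/WT), mice homozygous for MYBPC3Δ25bp (a deletion of 25 bp in the gene of cardiac myosin-binding protein C), mice heterozygous for HRC S96A (a substitution in the histidine-rich protein that binds calcium inside the sarcoplasmic reticulum), and compound mice that were homozygous for the first and heterozygous for the second. The nontransgenic and MYBPC3 deletion groups each held 2 males and 1 female, the female being library 3, and the HRC variant and compound groups held females alone. The sources used here do not give how the alleles were made, which chambers were dissected, or whether each library came from a single mouse, so the p-values rest on the spread among samples, which may be technical.

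A myosin motor carries a regulatory and an essential light chain on its neck, and heart muscle uses different genes for them in the ventricle and in the atrium. Iroquois homeobox factors and the Notch effector Hey2 are known for helping to set and keep the ventricular programme during development, in part by holding atrial genes down. In the adult ventricle Irx3 and Irx5 are best known for shaping conduction and repolarisation.

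The homeobox genes Irx3, Irx5 and Irx4 are close relatives, and the stretch that encodes the DNA-reading helix of the homeodomain is shown because the family is conserved there. The capitals mark the 8 codons of the core of that helix, read from the longest open reading frame of the GENCODE M21 transcripts, 5′ to 3′.
Irx3: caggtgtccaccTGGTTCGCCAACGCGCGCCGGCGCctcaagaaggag
Irx5: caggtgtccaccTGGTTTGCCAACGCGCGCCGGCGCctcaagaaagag
Irx4: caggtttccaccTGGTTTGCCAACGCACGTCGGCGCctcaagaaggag
These 48 bases are coding positions 526 to 573 of Irx3, 472 to 519 of Irx5 and 565 to 612 of Irx4, counted from the start codon. Irx3 and Irx5 differed at 2 of the 48 bases, and Irx4 differed from each of them at 4. Few longer words were shared. Of 2762 words of 31 bases in the Irx3 transcripts, 28 (1.01%) also occurred in Irx5, and Irx4 shared none with either gene. The Irx5 transcripts shared 35 of 3097 words (1.13%) with Irx2.

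The positions below are those of the deposited table, in GRCm38.p6. Irx3 (gene 16373, chromosome 8, 91798511 to 91807540) and Irx5 (gene 54352, chromosome 8, 92357796 to 92361456, plus strand) are neighbours, with Fto on the far side of Irx3 and Irx6 on the far side of Irx5. Irx4 (gene 50916, chromosome 13, 73259590 to 73269622, plus strand) lies between Irx2 and Ndufs6. Hey2 (gene 15214, chromosome 10, 30832359 to 30842783, minus strand) lies between Ncoa7 and Hddc2. Myl2 (gene 17906, chromosome 5, 122100904 to 122113398, plus strand) lies between Cux2 and Ppp1cc, and its 3′ part overlaps Ccdc63 on the other strand. Myl3 (gene 17897, chromosome 9, 110763681 to 110769794, plus strand) lies between Pth1r and Prss42. The table lists Irx3 on the plus strand, whereas GENCODE places it on the minus strand at 91798525 to 91802067 and the antisense RNA Irx3os on the plus strand at 91800415 to 91807539. The table's interval spans both, so the Irx3 value may include Irx3os reads and is uncertain in every result below.

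For the light chains, 1 promoter stretch of a ventricular gene is shown beside that of an atrial one. Both are 100 bases, from 132 to 33 bases before the RefSeq start, GRCm38.p6, 5′ to 3′ on the gene's strand. The capitals mark a CArG box, the motif that serum response factor is known to read. This pair was chosen because both promoter windows held that box, so its presence in both follows from the choice.
Myl3, chr9:110763546-110763645, plus strand: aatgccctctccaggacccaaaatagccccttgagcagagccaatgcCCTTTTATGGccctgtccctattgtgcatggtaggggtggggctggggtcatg
Myl7, chr11:5898815-5898914, minus strand: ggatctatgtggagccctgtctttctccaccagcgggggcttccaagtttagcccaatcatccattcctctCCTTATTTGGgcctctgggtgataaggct
The box began 85 bases before the start in Myl3 and 61 bases before it in Myl7. A CArG box occurred in 1.47% of 32851 RefSeq promoter windows of 250 bases, searched on both strands. Of the 6 genes 5 had an entry in the RefSeq promoter table, and no CArG box was present in the windows of Myl2, Irx4, Irx3 and Hey2. Nor was one present in the window of Myl4, the other atrial light chain gene. Both windows of Myl2 lie upstream of the interval that the counting table gives for it. The window of Irx3, 91801655 to 91801904, lies wholly within GENCODE exons of Irx3, so it is not upstream sequence by that annotation. These matches describe letters in a window and were not tested as sites.

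Total counts were 15615189 to 20581196 per library. Mybpc3 had 4884, 3519 and 3629 CPM (counts scaled to library size by trimmed mean of M values) in nontransgenic libraries, 2463, 2914 and 2532 in deletion libraries, 2895, 3296 and 3847 in HRC variant libraries, and 3531, 3657 and 3922 in compound libraries, so the compound libraries lay above those with the deletion alone. Whether a library's Mybpc3 reads cross the deleted bases is not given by the table, and these levels do not check the genotype labels. The heart label was met by 6 of 6 markers of working cardiomyocytes, which summed to 50771 to 76418 CPM. The 10 atrial muscle markers summed to 3720 to 9361 CPM in nontransgenic libraries, 3792 to 6575 in deletion libraries, 9196, 3076 and 294 in HRC variant libraries 1, 2 and 3, and 232 to 529 in compound libraries. The 3 compound libraries and HRC variant library 3 therefore stood apart from the other 8, and all 4 are female. The summed CPM of the 6 skeletal muscle markers in the table followed the same split. The sums were 32.0 to 43.2 CPM in those 4 libraries and 109 to 237 CPM in the others. The mean log2 deviation, which counts each of these markers alike, did not follow it. That measure was -0.036 and -0.35 in compound libraries 1 and 2. It was -0.17 in nontransgenic library 1, -0.20 in deletion library 3 and -0.20 in HRC variant library 2. No atrial marker was at 0 throughout a group, and of the skeletal ones Myh2 was at 0 in all nontransgenic libraries and Myh1 and Myh2 in all deletion libraries. In bulk tissue, fewer cells of a type and less RNA per cell cannot be told apart.

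**Figure D1:**
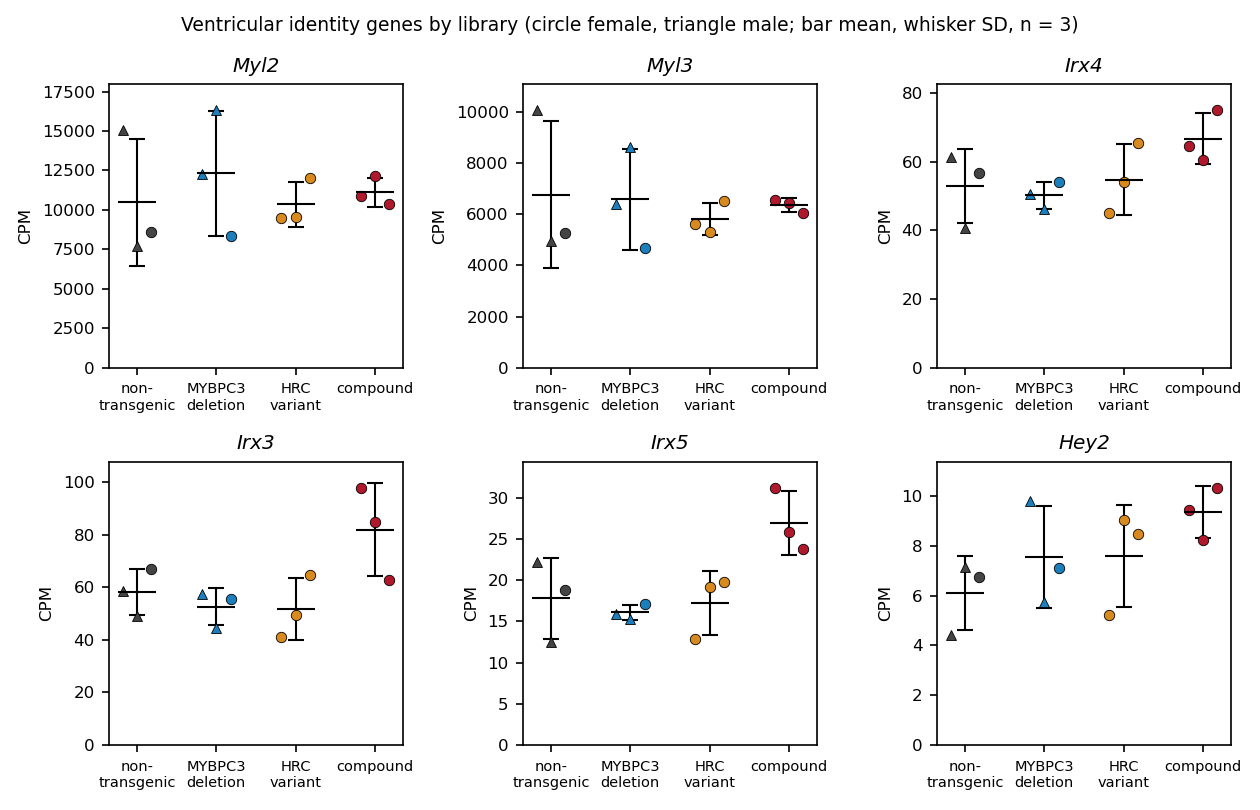
Level of each ventricular identity gene in CPM (linear axes from 0), 1 point per library, circles for females and triangles for males, with the group mean and SD (n = 3). Irx5 in the 3 compound libraries (23.8 to 31.2 CPM) sits above all 9 other libraries, while the light chains spread most widely among nontransgenic and MYBPC3 deletion libraries.

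The members spanned a wide range of transcript abundance. On the authors' length-scaled TPM, Myl2 had 24084 to 39151 over the 12 libraries and Myl3 had 10216 to 15851. Irx4 had 27.6 to 53.7 TPM, Irx3 26.6 to 74.2, Irx5 8.93 to 23.1 and Hey2 2.35 to 7.27. In this order the ranges of Irx3 and Irx4 overlapped, and every other pair of neighbours was separate over all 12 libraries. Myl2 and Myl3 alone took 1.32% to 2.44% of the counts of a library. The factor genes rested on far fewer reads: 704 to 1774 for Irx3, 729 to 1341 for Irx4, 242 to 565 for Irx5 and 74 to 185 for Hey2.

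Myl2 encodes the ventricular regulatory light chain. Its level was 15091, 7733 and 8591 CPM in nontransgenic libraries 1, 2 and 3, and 12275, 16313 and 8336 CPM in deletion libraries. It was 9502, 9527 and 12016 CPM in HRC variant libraries and 10856, 12122 and 10347 CPM in compound libraries. The highest library of all was a male with the MYBPC3 deletion and the lowest a nontransgenic male, and the 4 groups overlapped throughout. Group means ran from 10348 CPM in HRC variant libraries to 12308 CPM in deletion libraries, less than the SD of 4023 CPM among nontransgenic libraries.

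Myl3 encodes the ventricular essential light chain. Its level was 10065, 4950 and 5262 CPM in nontransgenic libraries and 6416, 8625 and 4693 CPM in deletion libraries. It was 5633, 5297 and 6511 CPM in HRC variant libraries and 6576, 6423 and 6063 CPM in compound libraries. The same 2 male libraries, nontransgenic 1 and MYBPC3 deletion 2, were the highest for both light chains, and no group stood clear of another. The coefficient of variation of Myl3 was 42.4% among nontransgenic and 30.0% among MYBPC3 deletion libraries, against 10.8% with the HRC variant and 4.15% in the compound group. In TPM it was 23.6%, 16.1%, 7.54% and 3.88% in the same order, and the nontransgenic value rests on library 1, whose level of 10065 CPM compares with 4950 and 5262 in the other 2. The first 2 of those groups mix the sexes and the other 2 do not, and the part of sex in this spread was not tested.

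Irx4 encodes the Iroquois factor that is most restricted to ventricular muscle. Its level was 61.3, 40.6 and 56.8 CPM in nontransgenic libraries, 50.4, 46.2 and 54.0 in deletion libraries, 45.0, 54.0 and 65.4 in HRC variant libraries, and 64.6, 60.5 and 75.0 in compound libraries. All 3 compound values lay above all 3 in deletion libraries, and they overlapped those of both other groups. Irx3, which is known for fast conduction through the ventricles, had 58.6, 49.3 and 67.0 CPM in nontransgenic libraries and 57.6, 44.6 and 55.8 in deletion libraries. It had 41.1, 49.6 and 64.6 CPM in HRC variant libraries, and 98.1, 85.0 and 62.9 in compound libraries. Compound libraries 1 and 2 held the highest values of all, and the remaining compound library fell within the nontransgenic and HRC variant ranges.

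Irx5 encodes a factor known for the gradient of repolarisation across the ventricular wall. Its level was 22.2, 12.5 and 18.8 CPM in nontransgenic libraries and 15.8, 15.3 and 17.1 in deletion libraries. It was 12.8, 19.2 and 19.7 CPM in HRC variant libraries, and 31.2, 25.9 and 23.8 in compound libraries. Every compound library was higher than each of the 9 other libraries, a pattern that 164 of the 13849 genes tested (1.18%) showed. Hey2, the Notch effector, had 4.41, 7.14 and 6.77 CPM in nontransgenic libraries, 9.79, 5.76 and 7.12 in deletion libraries, 5.24, 9.05 and 8.49 in HRC variant libraries, and 9.45, 8.25 and 10.3 in compound libraries. The compound values of Hey2 lay above all nontransgenic ones and overlapped both single mutant groups.

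No ventricular identity gene passed the test in any comparison. In edgeR's quasi-likelihood model with group and sex as terms, the call was set at a Benjamini-Hochberg adjusted p under 0.05, taken over all 13849 genes. This called 0 of the 6 members in each of the 5 pairwise comparisons and in the interaction, and 0% of all genes in each. At an unadjusted p under 0.05 the members counted 0 of 6 for the MYBPC3 deletion against nontransgenic mice, beside 8.16% of all genes, and 0 of 6 for the HRC variant, beside 6.23%. For the compound group they counted 0 of 6 against nontransgenic mice (6.36% of all genes), 1 of 6 against the MYBPC3 deletion (5.73%) and 2 of 6 against the HRC variant (6.3%). DESeq2 with the same terms called 0 members in all 6 comparisons (in the interaction it gave Irx5 and Hey2 no adjusted p), while it called 6 to 76 genes in all, and limma-voom called 0 members and 0 genes. The 3 compound comparisons share the compound libraries and are not independent of each other.

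With the MYBPC3 deletion alone, all 6 members were fitted within 0.31 of their nontransgenic level on the log2 scale. The fitted log2 fold changes were 0.20 ± 0.23 (SE) for Myl2, -0.05 ± 0.22 for Myl3, -0.07 ± 0.17 for Irx4, -0.14 ± 0.19 for Irx3, -0.15 ± 0.21 for Irx5 and 0.31 ± 0.27 for Hey2. The edgeR adjusted p ran from 0.830 to 0.982. No member was higher in every deletion library than in every nontransgenic one, as 4.89% of all genes were. The direction turned without nontransgenic library 1 for Irx4 (0.10) and Irx5 (0.11) and without nontransgenic library 2 for Myl2 (-0.069), and that of Myl3 turned with 4 of the libraries left out in turn, to at most 0.26 without nontransgenic library 1.

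The HRC variant alone gave fitted log2 fold changes of 0.39 ± 0.28 for Myl2, 0.20 ± 0.27 for Myl3, -0.05 ± 0.20 for Irx4, -0.31 ± 0.23 for Irx3, -0.13 ± 0.26 for Irx5 and 0.28 ± 0.33 for Hey2. The edgeR adjusted p ran from 0.917 to 0.993, and again no member was higher in all mutant libraries than in all nontransgenic ones (4.17% of all genes were). Without the sex term the values for Myl2 and Myl3 were -0.02 and -0.22 and that for Irx4 was 0.05, so all 3 changed sign. Irx4 also changed sign with the sex term kept, to 0.080 without HRC variant library 1. Every HRC variant mouse was female and the nontransgenic group had 1 female.

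All 6 members were fitted higher in compound than in nontransgenic hearts, none past the threshold. The log2 fold change was 0.52 ± 0.26 for Irx5 (edgeR adjusted p = 0.813), 0.58 ± 0.33 for Hey2, 0.35 ± 0.23 for Irx3, 0.23 ± 0.21 for Irx4, 0.49 ± 0.28 for Myl2 and 0.33 ± 0.27 for Myl3. Irx5 and Hey2 were higher in every compound library than in every nontransgenic one, as were 8.79% of all genes. The median over all 13849 genes in this comparison was 0.00. Without the sex term Myl2 fell to 0.085 and Myl3 turned to -0.09, while Irx5 and Irx3 stood at 0.60 and 0.49.

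**Figure D2:**
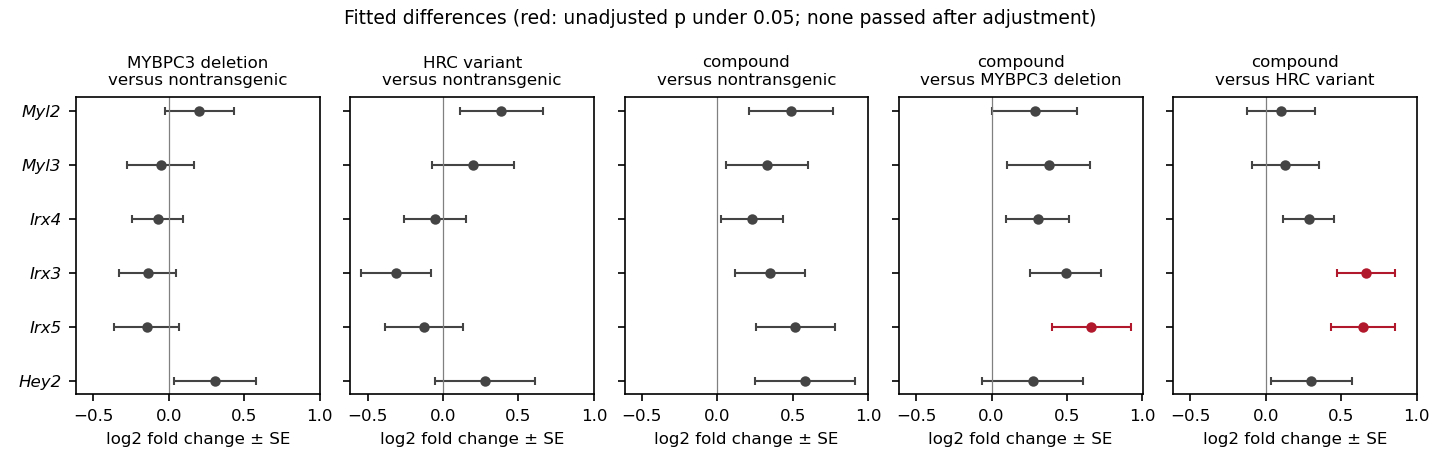
Fitted log2 fold change (x axis) of each member, with its standard error as the bar, in the 5 pairwise comparisons. In compound hearts against the HRC variant, Irx3 (0.66) and Irx5 (0.64) lie farthest from 0, and in red are the values with an unadjusted p under 0.05, none of which passed after adjustment.

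For Irx3, Irx5 and Irx4 the widest differences lay between compound hearts and those with 1 alteration. Against the MYBPC3 deletion, Irx5 was 0.66 ± 0.26 higher on the log2 scale (edgeR adjusted p = 0.862), Irx3 0.49 ± 0.24, Irx4 0.31 ± 0.21, Myl3 0.38 ± 0.28, Myl2 0.29 ± 0.28 and Hey2 0.27 ± 0.34. The mean CPM of the light chains ran the other way, 11108 against 12308 for Myl2 and 6354 against 6578 for Myl3. Their mean TPM did not, at 33716.3 against 33378.4 for Myl2 and 13142.5 against 12207.9 for Myl3. Without the sex term the log2 differences of Myl2 and Myl3 were -0.15 and -0.05. Irx5, Irx4 and Irx3 had compound values entirely above those with the deletion, as did 11.5% of all genes. Against the HRC variant, Irx3 was 0.66 ± 0.19 higher (edgeR adjusted p = 0.608) and Irx5 0.64 ± 0.21 (edgeR adjusted p = 0.667). The other 4 members lay between 0.10 and 0.30 in that comparison. Irx5 had non-overlapping groups there, as did 6.2% of all genes higher in the compound group.

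In the authors' deposited table, Irx5 and Irx3 passed in the comparison of compound hearts with the MYBPC3 deletion. The authors' deposited table gives a log2 fold change of 0.76 with a q-value of 0.0015 for Irx5, 0.65 with 0.0236 for Irx3 and 0.43 with 0.0741 for Irx4. A q-value under 0.05 was given to 716 of 16882 genes in that comparison in the authors' deposited table, which is 4.24%. The q-values of the members in the authors' deposited table were at least 0.163 in every other comparison. DESeq2 run on these 2 groups alone and with no sex term, an alternative chosen after seeing the data, gave 0.75 for Irx5 (adjusted p = 0.000909) and 0.65 for Irx3 (adjusted p = 0.0208), and called 816 of 13334 genes (6.12%). With all 4 groups in the DESeq2 fit and no sex term, the adjusted p was 0.0645 for Irx5 and 0.0777 for Irx3. With the sex term as well, the DESeq2 values were 0.68 (adjusted p = 0.581) and 0.50 (adjusted p = 0.712). The call thus held in 1 of these 3 DESeq2 fits. Among females alone, which leaves 1 library with the MYBPC3 deletion, the fitted differences were 0.65 for Irx5 and 0.55 for Irx3, given as values without a test.

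The interaction takes the log2 difference of the compound group from nontransgenic mice and subtracts those of both single mutants. It was 0.80 ± 0.27 for Irx3 (edgeR adjusted p = 0.552) and 0.79 ± 0.30 for Irx5 (edgeR adjusted p = 0.563). Both were positive because each gene was fitted lower with either alteration alone and higher with both. For Irx3 these fits were -0.14 with the deletion, -0.31 with the HRC variant and 0.35 with both. For Irx5 they were -0.15, -0.13 and 0.52 in the same order, and none of these fits passed the test. It was 0.36 for Irx4, 0.18 for Myl3, -0.10 for Myl2 and -0.01 for Hey2. At an unadjusted p under 0.05 this made 2 of 6 members, beside 8.54% of all genes. The interaction was 0.55 to 1.02 for Irx3 and 0.51 to 1.01 for Irx5 over 24 alternative settings.

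The 2 highest levels of Irx5 and of Irx3 came from compound libraries 1 and 2, which were low in atrial markers. HRC variant library 3, with 294 CPM of atrial markers, had 19.7 CPM of Irx5, below every compound library and the highest of its own group. It had 64.6 CPM of Irx3, above compound library 3 at 62.9. The order was not strict: nontransgenic library 3, with 5997 CPM of atrial markers, had 67.0 CPM of Irx3, and nontransgenic library 1, with 3720, had 22.2 CPM of Irx5. At the other end, the 2 libraries with the most atrial mRNA, nontransgenic 2 and HRC variant 1, had the lowest Irx5 levels of all, 12.5 and 12.8 CPM. For Irx3 the 2 lowest were HRC variant library 1 and deletion library 2, at 41.1 and 44.6 CPM. With the atrial marker level added to the edgeR model, an alternative chosen after seeing the data, the compound difference of Irx5 was 0.02 against nontransgenic mice, 0.16 against the MYBPC3 deletion and 0.37 against the HRC variant. That of Irx3 was -0.12, 0.02 and 0.41. The atrial level separates the compound group from every other library but HRC variant 3, so genotype and atrial mRNA cannot be told apart against nontransgenic mice or the MYBPC3 deletion. Leaving out HRC variant library 3 moved the difference from the HRC variant to 0.87 for Irx3 (edgeR adjusted p = 0.158) and to 0.77 for Irx5 (edgeR adjusted p = 0.326).

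**Figure D3:**
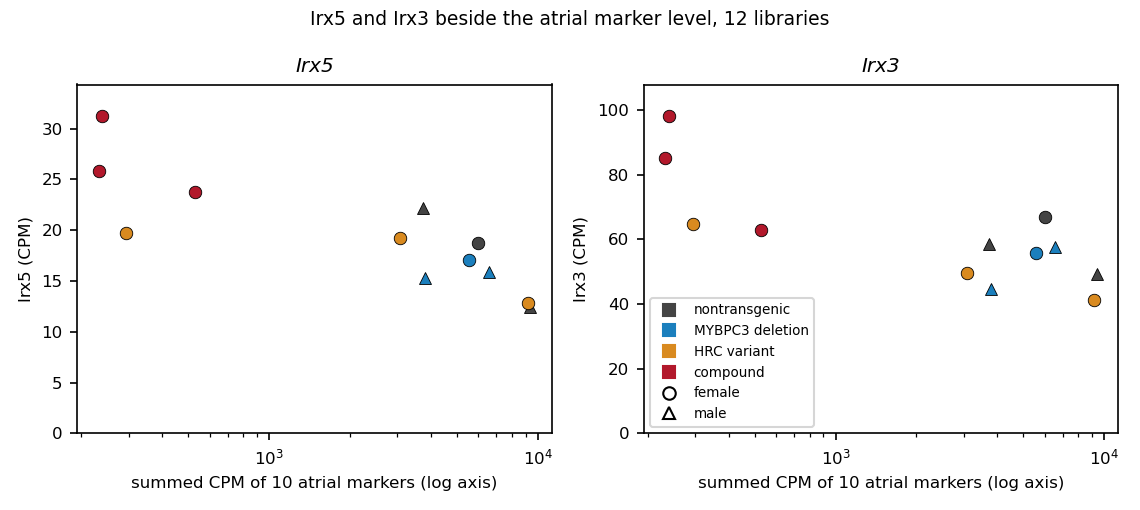
Level of Irx5 and of Irx3 in CPM (linear y axes) against the summed CPM of 10 atrial muscle markers (log x axis), 1 point per library, coloured by group, circles female and triangles male. The 4 libraries at the left, with 232 to 529 CPM of atrial markers, are the compound libraries and HRC variant library 3, and the latter has 19.7 CPM of Irx5 against 23.8 to 31.2 in the compound ones.

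The ventricular light chains overlapped between all groups, while their atrial counterparts ranged over orders of magnitude. Myl7, the atrial regulatory light chain, had 475, 1137 and 539 CPM in nontransgenic libraries, 834, 668 and 678 in deletion libraries, 1349, 431 and 0.998 in HRC variant libraries, and 6.96, 1.12 and 59.5 in compound libraries. In the library with the lowest level, HRC variant 3, it rested on 18 reads. Myl4, the atrial essential light chain, had 744 to 1747 CPM in nontransgenic libraries, 872 to 1166 in deletion libraries, 1978, 641 and 3.94 in HRC variant libraries, and 14.0, 4.15 and 80.0 in compound libraries. Myl2 reads outnumbered Myl7 reads 6.8-fold to 31.7-fold in the nontransgenic libraries, and 1553-fold, 10540-fold and 174-fold in compound libraries 1, 2 and 3. Myl3 exceeded Myl4 2.83-fold to 13.5-fold in nontransgenic libraries and 469-fold, 1537-fold and 75.8-fold in compound ones. HRC variant libraries 1 and 2 stayed in the nontransgenic range of both ratios, and library 3 reached 11710-fold for Myl2 over Myl7 and 1642-fold for Myl3 over Myl4.

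On the log2 scale the ratio of Myl2 to Myl7 was 3.92 ± 1.11 (SD, n = 3) in nontransgenic, 4.04 ± 0.51 in MYBPC3 deletion, 6.93 ± 5.76 in HRC variant and 10.47 ± 2.96 in compound libraries. The ratio of Myl3 to Myl4 was 2.62 ± 1.13, 2.71 ± 0.52, 5.08 ± 4.91 and 8.57 ± 2.19 in the same order. Compound libraries lay entirely above nontransgenic ones, by 6.55 and 5.94, and above MYBPC3 deletion ones, by 6.43 and 5.85, each with an exact two-sided permutation p of 0.1. That is the smallest p that 3 against 3 allows, and it became 0.25 after Benjamini-Hochberg adjustment over the 10 tests of ratios. Against the HRC variant the differences were 3.54 and 3.49 (exact permutation p = 0.4), and between the HRC variant and nontransgenic mice they were 3.02 and 2.45 (exact permutation p = 0.6). Without HRC variant library 3, the differences of the compound group from the HRC variant rose to 6.83 and 6.29, and those of the HRC variant from nontransgenic mice turned to -0.27 and -0.35. The MYBPC3 deletion differed from nontransgenic mice by 0.12 and 0.09 (exact permutation p = 1). Since Myl2 and Myl3 overlapped between all groups, the atrial genes carried the spread of both ratios.

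**Figure D4:**
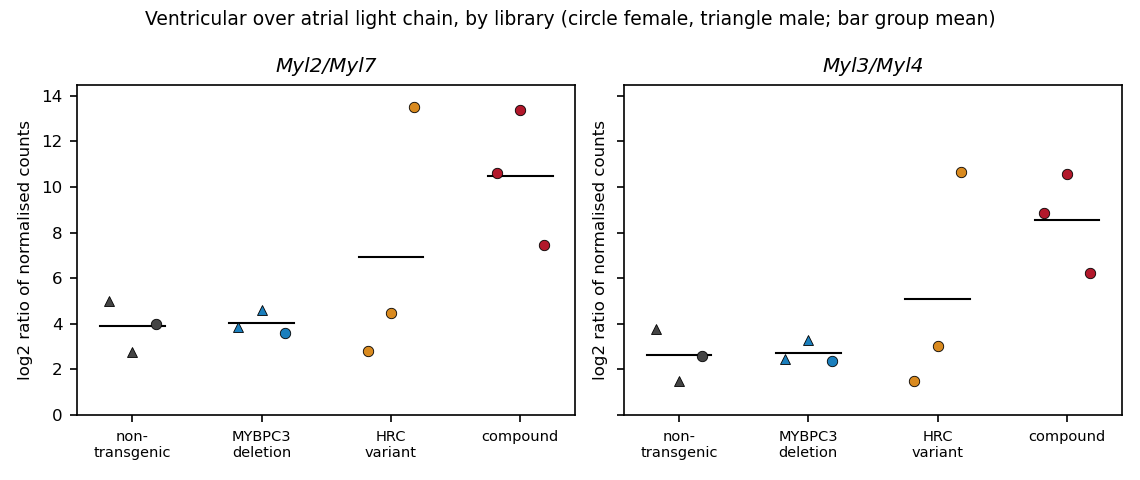
Log2 ratio of normalised counts (y axis) of the ventricular over the atrial regulatory light chain (Myl2/Myl7) and essential light chain (Myl3/Myl4), 1 point per library with the group mean as a bar, circles female and triangles male. HRC variant library 3 lies with the compound libraries, far from the other 2 of its group, whose mean bar falls where no library lies.

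Over the 12 libraries, in log2 CPM, 3 of 15 pairs of members varied together past an adjusted p of 0.05: the light chains with each other, and Irx5 with Irx4 and with Irx3. Myl2 and Myl3 correlated with r = 0.94 (permutation p = 2e-05, adjusted over 15 pairs 0.0003) and rho = 0.91. The r was 0.93 without the 2 libraries farthest from the median of Myl2, and 0.98 for deviations from group means. Irx4 and Irx5 correlated with r = 0.86 (permutation p = 0.00044, adjusted 0.0022) and rho = 0.89, with 0.86 without the 2 farthest libraries and 0.77 within groups. Irx3 and Irx5 correlated with r = 0.87 (permutation p = 0.00022, adjusted 0.00165) and rho = 0.85, with 0.73 without the 2 farthest and 0.73 within groups. Irx4 and Irx3 gave r = 0.69 (permutation p = 0.0136, adjusted 0.0509), rho = 0.80 (adjusted 0.00986) and 0.48 within groups. No pair of a light chain with a factor gene, and no pair with Hey2, passed (adjusted permutation p of r at least 0.353). The points share library depth, tissue composition and scaling, and the parts of these were not tested.

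**Figure D5:**
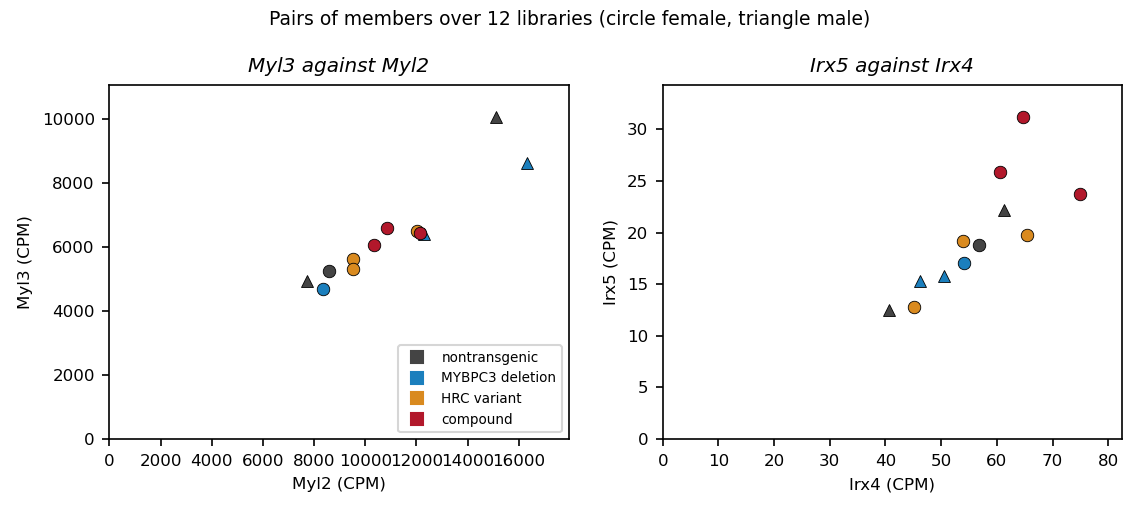
Myl3 against Myl2 and Irx5 against Irx4, both axes in CPM from 0, 1 point per library coloured by group, circles female and triangles male. Myl2 and Myl3 rise together over the 12 libraries, with 2 male libraries at the top, and the compound libraries lead Irx5 at 23.8 to 31.2 CPM.

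The genes most like each member in profile were sought among 11550 genes by Pearson's r of log2 CPM over the 12 libraries. Myl2 was followed most closely by Mb (r = 0.97), which encodes myoglobin, by Commd1 (0.97) and by Cox7a1 (0.96), a subunit of cytochrome oxidase. Myl3 was followed by Hsd17b10 and Fars2 (0.98 each), both mitochondrial enzymes, and by Sdhb (0.97), a subunit of succinate dehydrogenase. Irx4 was followed by Cdk18 (0.93), Asb10 (0.91) and Rnf123 (0.88). Irx5 was followed by Cdk18 (0.89), Cs (0.88), which encodes citrate synthase, and Mpped2 (0.88). Irx3 was followed by Fam174b (0.93), Prune1 (0.91) and the histone deacetylase gene Hdac5 (0.90), and Hey2 by Ankrd28 (0.93), Arap2 (0.92) and Pkia (0.92). The lists of the 2 light chains held no gene in common among these 3, and Cdk18 was on those of Irx4 and Irx5.

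The paralogs Irx1 and Irx2 lie on chromosome 13 with Irx4. Irx1 had 12.2, 9.19 and 8.57 CPM in nontransgenic libraries, 2.59, 8.68 and 11.6 in deletion libraries, 4.10, 9.47 and 13.9 in HRC variant libraries, and 13.7, 16.6 and 14.0 in compound libraries. Irx2, the neighbour of Irx4, had 8.34, 3.29 and 7.89 CPM, then 3.41, 6.78 and 8.50, then 5.54, 8.68 and 14.0, and 12.9, 16.4 and 9.22 in the same order of groups. For Irx2 against nontransgenic mice, the fitted compound log2 difference was 0.60 ± 0.50 (edgeR adjusted p = 0.939). For Irx1 it was 0.27 ± 0.62 (edgeR adjusted p = 0.993). In both genes all 3 compound values lay above the 3 nontransgenic ones, as for 8.79% of all genes. The interaction was 1.15 ± 0.69 for Irx1 (edgeR adjusted p = 0.675) and 0.53 ± 0.57 for Irx2 (edgeR adjusted p = 0.814). Of the 7 named paralogs 5 were tested, 3 were fitted higher and 2 lower in compound than in nontransgenic hearts, with a median log2 fold change of 0.27, and edgeR called 0. Hes1, another Notch effector, had the smallest p of the list, at 0.71 ± 0.25 with the HRC variant (edgeR adjusted p = 0.683) and at 0.86 ± 0.25 in compound hearts (edgeR adjusted p = 0.614). Heyl and Irx1 came next with the HRC variant, at 0.20 ± 0.17 and -0.42 ± 0.62.

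Partners and reported targets of the factors gave no called gene either. Of 20 named genes 19 were tested, and 6 were fitted higher and 13 lower in compound than in nontransgenic hearts, with a median log2 fold change of -0.14. Gja1, a connexin of working heart muscle, was fitted 0.81 ± 0.22 higher (edgeR adjusted p = 0.574). With the HRC variant alone Gja1 was fitted 0.61 ± 0.22 above nontransgenic hearts (edgeR adjusted p = 0.683), and compound hearts differed from the HRC variant by 0.19 ± 0.17. Gja5, the connexin of atrium and fast conduction tissue, was fitted -2.20 ± 0.54 in compound against nontransgenic hearts (edgeR adjusted p = 0.614). Its level was 42.3, 51.8 and 55.1 CPM in nontransgenic libraries, 16.0 in HRC variant library 3 and 13.9, 12.6 and 10.9 in compound libraries, the same split as the atrial markers. Nppa, the atrial natriuretic peptide gene and itself on the atrial marker list, was fitted -4.52 ± 1.21 (edgeR adjusted p = 0.630).

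Among light chain genes and the kinase and phosphatase genes that act on them, 14 of 15 were tested and edgeR called 0. With the MYBPC3 deletion against nontransgenic mice 8 were fitted higher and 6 lower, with a median log2 fold change of 0.06. Ppp1r12a, a targeting subunit of myosin phosphatase, was fitted at 0.34 ± 0.14 (edgeR adjusted p = 0.580), Myl6, a light chain of non-muscle and smooth muscle myosin, at 0.41 ± 0.19 (edgeR adjusted p = 0.613), and Ppp1r12b at -0.21 ± 0.16. Smooth muscle and pericyte markers summed to 2452, 1280 and 1219 CPM in deletion libraries and 954, 980 and 1392 CPM in nontransgenic libraries. Only deletion library 1 lay above the nontransgenic range. The mean log2 deviation of these markers was 1.63, 0.34 and -0.24 in deletion libraries and -0.43, -0.078 and 0.62 in nontransgenic ones. The part of these cells in the values above was not tested. In compound against nontransgenic hearts 3 genes of the list were fitted higher and 11 lower, with a median of -0.16. Against the MYBPC3 deletion 4 were higher and 10 lower (median -0.29), and against the HRC variant 3 and 11 (median -0.27). The list includes the atrial genes Myl7 and Myl4.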

How the data were processed

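Poly(A)-enriched RNA of 12 heart samples was sequenced on DNA nanoballs, per the labels' protocols. The deposited table gives an expected count per gene and library, an estimate that can hold fractions of a read (94.3% of the values were exact whole numbers), and the TPM that the authors computed. The authors also deposited log2 fold changes and q-values for pairs of groups. HISAT, Bowtie2, DESeq2 and the build GRCm38.p6 are named in the submitters' processing notes. What each tool did, its version, the counting rule, the annotation and any use of strand were not given in the sources used here. A further 12 columns of per-sample values (FPKM) were not used.

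Expected counts were rounded and fitted with edgeR 4.0.16 in R 4.3.3: filterByExpr with a minimum count of 10, TMM scaling, and a robust quasi-likelihood model with group and sex over all 12 libraries (7 residual degrees of freedom, biological coefficient of variation 21.5%). Log2 CPM used a prior count of 0.5. P-values were adjusted by Benjamini-Hochberg over the 13849 genes tested, with a threshold of 0.05. Alternatives were DESeq2 1.42.0, limma-voom (limma 3.58.1), other scalings and filters, females alone, no sex term, a replicate block, only the groups compared, and each library left out. The atrial term was the mean log2 deviation of 10 atrial markers. Correlations used 100000 permutations. None of the 12 pairs of libraries within a group agreed within sampling noise.

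The members, gene lists, markers and tests were chosen with earlier results of these data known. All 6 members are named, and of each list the 3 genes with the smallest p in the comparison with nontransgenic mice where most members had p under 0.05 (the first such comparison in a tie). The 3 genes most like each member had a mean log2 CPM of at least 1.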

Additional observations from a re-analysis of the deposited data

Results flagged for a closer look

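For Irx3 and Irx5 each library with the MYBPC3 deletion was set against the mean of the group without it. The values lay below that mean without the HRC variant and above it with the variant, although no effect of the deletion passed the test. The share of all genes with this pattern was not counted. For both genes the deletion and nontransgenic libraries overlapped. For Irx3, compound library 3 at 62.9 CPM lay below HRC variant library 3 at 64.6. Without the variant, each of the 3 deletion libraries lay below the nontransgenic mean of log2 CPM, by a mean of -0.14 for Irx3 and -0.11 for Irx5. For Irx3 this mean rests on deletion library 2 at -0.38, with -0.0050 and -0.052 in the other 2. The fitted effects of the deletion alone were smaller than their SE, at -0.14 ± 0.19 and -0.15 ± 0.21, and that of Irx5 was 0.11 without nontransgenic library 1. With the variant, each of the 3 compound libraries lay above the HRC variant mean, by a mean of 0.66 for both genes. The 2 effects of the deletion differed by 0.81 for Irx3 and 0.77 for Irx5 on the log2 scale. The test of that difference, the interaction term of edgeR with sex in the model, gave 0.80 with an adjusted p of 0.552 for Irx3 and 0.79 with 0.563 for Irx5. With the atrial marker level as a further term, chosen after seeing the data, edgeR gave an interaction of 0.55 for Irx3 (adjusted p = 0.731) and 0.51 for Irx5 (adjusted p = 0.815).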

How the results depend on the processing

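Over up to 26 alternatives per comparison, 0 members were called in all but 1. That one, DESeq2 with no sex term and only the groups compared (chosen after seeing the data), called 2 members, Irx3 (0.65) and Irx5 (0.75), in compound hearts against the MYBPC3 deletion. Irx5 kept its direction in the 3 compound comparisons under all 26 alternatives, and Irx3 under all but the atrial term against nontransgenic mice. The size was not kept. With the atrial term Irx5 was 0.02 against nontransgenic mice and 0.16 against the MYBPC3 deletion, from 0.52 and 0.66. Irx3 was 0.02 against the MYBPC3 deletion, from 0.49. The alternatives share most of their libraries. Fitted log2 fold changes that changed sign follow, grouped by comparison, and none was called.

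MYBPC3 deletion against nontransgenic: leaving out single libraries gave -0.069 to 0.47 for Myl2, -0.32 to 0.26 for Myl3, -0.23 to 0.10 for Irx4 and -0.36 to 0.11 for Irx5, and females alone gave -0.032 for Myl2. For the ratios, leaving out single libraries gave -0.46 to 0.66 for Myl2/Myl7 and -0.47 to 0.66 for Myl3/Myl4, lowest without nontransgenic library 2 (and below 0 without deletion library 2, at -0.17 and -0.21), and females alone gave -0.38 and -0.24.

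HRC variant against nontransgenic: with no sex term in edgeR, in DESeq2, in DESeq2 with only the groups compared, and in edgeR without HRC variant 3, Myl2 was -0.017, -0.024, -0.025 and -0.14, and Myl3 was -0.22, -0.22, -0.23 and -0.31. In the first 3 of these Irx4 was 0.051, 0.046 and 0.046, and leaving out single libraries gave -0.22 to 0.080 for Irx4 and -0.25 to 0.058 for Irx5, both highest without HRC variant library 1. The ratios ran from -0.27 to 5.07 for Myl2/Myl7 and from -0.35 to 4.24 for Myl3/Myl4, the low ends without HRC variant library 3.

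Compound against nontransgenic: with the atrial term Myl2 was -0.019, Myl3 -0.096, Irx4 -0.15 and Irx3 -0.12. In the same 4 fits without a sex term Myl3 was -0.089, -0.091, -0.091 and -0.080. Compound against the MYBPC3 deletion: in those 4 fits Myl2 was -0.15, -0.14, -0.14 and -0.13 and Myl3 was -0.051, -0.042, -0.042 and -0.029, and with the atrial term Myl2 was -0.23, Myl3 -0.054 and Irx4 -0.081. Compound against the HRC variant: with the atrial term Myl2 was -0.19 and Myl3 -0.12.

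Interaction: leaving out single libraries gave -0.36 to 0.18 for Myl2, -0.12 to 0.46 for Myl3 and -0.22 to 0.27 for Hey2. Myl2 was above 0 without nontransgenic library 2, deletion library 2 or HRC variant library 3, Myl3 below 0 without nontransgenic library 1, and Hey2 above 0 with 6 of the 12 libraries left out in turn. Myl2 was 0.14 among females and 0.016 with no sex term and without HRC variant 3, where Hey2 was 0.11. Myl3 was -0.077 with the atrial term. Hey2 was 0.22 among females, 0.0073 with DESeq2, 0.067 with limma-voom, 0.0073 with RLE scaling and 0.0098 with DESeq2 and no sex term. The cause of these changes was not tested.

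The replicate numbers of the labels did not pair the libraries: 5 of 18 same-numbered pairs correlated above 0.1, from -0.22 to 0.27, and 3 libraries correlated best with their own number. With a replicate block 0 members were called in any comparison, 1 gene was called in the interaction, and Irx4 was 0.16 with the HRC variant against nontransgenic mice. Hey2 had the fewest reads among the members, 74 to 185, and the part of depth in its precision was not tested.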

Other observations

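Of the 14 other ventricle-enriched genes 13 were tested, and edgeR called 0 in any comparison. In compound against nontransgenic hearts 10 were fitted higher and 3 lower, with a median log2 fold change of 0.13. Against the HRC variant 12 were higher and 1 lower, with a median of 0.28, and against the MYBPC3 deletion 11 were higher and 2 lower, with a median of 0.17, while the medians over all genes were -0.01 and 0.01. Lbh, a transcriptional cofactor gene, had 498, 416 and 437 CPM in nontransgenic libraries and 897, 914 and 723 in compound ones, and was fitted 0.97 ± 0.29 higher on the log2 scale (edgeR adjusted p = 0.630). HRC variant library 3 held 733 CPM of Lbh, the highest of its group and above compound library 3. Pln, which encodes the SERCA inhibitor phospholamban, had 6154, 5921 and 6637 CPM in nontransgenic and 9090, 8757 and 9281 CPM in compound libraries, fitted at 0.43 ± 0.21 (edgeR adjusted p = 0.809). All compound values of both genes lay above all nontransgenic ones, as for 8.79% of all genes. The list was chosen with earlier results of these data known and gives no independent support, and it shares Gja1 with the list of partners.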
